A study of Arabidopsis thaliana with 7 samples.

Results

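Photorespiration recycles the phosphoglycolate that Rubisco makes when it fixes oxygen instead of carbon dioxide, and the transcripts of 10 of its enzymes are described here in Arabidopsis thaliana seedlings of the glk1 glk2 double mutant and of the wild type (WT). The rule that chose them lists Gene IDs and uses no measured value; it picks 10 of 27655 genes in the expression table: PGLP1 (AT5G36700), GOX1 (AT3G14420), GOX2 (AT3G14415), GGT1 (AT1G23310), AGT1 (AT2G13360), GLDP1 (AT4G33010), GLDP2 (AT2G26080), SHM1 (AT4G37930), HPR1 (AT1G68010) and GLYK (AT1G80380). RNA sequencing gave 4 libraries of glk1 glk2 and 3 of WT. All were Col-0 seedlings, 12 days old, raised at 16 °C in long days on diluted MS medium and taken 4 h after lights on (ZT4), so that both genotypes had shoots and roots and shared the low growth temperature. The labels name both mutated genes but no alleles, and they do not say that libraries came from separate plantings. What the p-values weigh is therefore library-to-library spread, which could be technical only.

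GLK1 and GLK2 are transcription factors that activate genes of the chlorophyll-binding antenna and of chlorophyll synthesis. Photorespiration runs through 3 organelles. Chloroplasts release glycolate, peroxisomes turn it into glycine, mitochondria join glycine into serine, and peroxisomes and chloroplasts return serine carbon to the Calvin cycle as phosphoglycerate. In leaves in the light these enzymes are among the most abundant outside the photosynthetic apparatus, and plants that lack one of them often grow well only in air enriched with carbon dioxide.

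Values are TPM, the share of a gene in the length-corrected total of its library. TPM always add up to the same total and keep no read depth, so the depth behind each value is unknown and no counting interval is given. The fixed total matters here. The 20 light-harvesting antenna genes held 4.76 ± 0.419% of all TPM in glk1 glk2 (SD, n = 4) and 16.3 ± 0.245% in WT (SD, n = 3), and the median log2 fold change of the 19127 genes tested was 0.33. With the libraries rescaled by trimmed means of M values (TMM), which sets the bulk of genes level, that median was 0.01. Each gene was therefore tested with limma in TPM and again after TMM scaling, and "rose" and "fell" are used only where both calls had the same direction at an adjusted p under 0.05. This rule is uneven. All 613 genes called higher after TMM scaling were also called higher in TPM, so the TPM call adds nothing for rises. Of the 948 called lower after TMM scaling, only 483 were also called lower in TPM, so falls are harder to call.

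The deposited WT replicate 1 column followed the alphabetical order of the Gene IDs while 5606 of the rows did not. In those rows its correlation with the average of the remaining columns, across genes, was 0.0546 in file order and 0.995 in alphabetical order. It was read in alphabetical order. GOX1 and GOX2 are the 2 members concerned: as deposited, WT replicate 1 listed 0.25 TPM beside GOX1 and 0 beside GOX2. The label check gave GLK1 at 49.7, 51.0, 56.0 and 49.9 TPM in glk1 glk2 and 183, 187 and 203 TPM in WT, and GLK2 at 50.6, 54.4, 46.0 and 51.5 TPM in glk1 glk2 and 161, 155 and 159 TPM in WT. Both fell, with transcript still present in every mutant library.

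Several of the enzymes are encoded by near copies, and how far their sequences differ sets how well their reads can be told apart. GOX2 at chr3:4818251-4821013 and GOX1 at chr3:4821391-4824178 lie in tandem on the plus strand of TAIR10.1 (RefSeq), 377 bases apart, with 12 exons each. Their coding sequences are 92.0% identical, with 88 of 1104 aligned bases different, and 99.1% of the 50-base stretches of GOX1 transcripts and 98.9% of those of GOX2 occur in no other gene. The coding stretches in which the pair differs most, from chr3:4823799-4823888 in GOX1 and chr3:4820648-4820737 in GOX2, are shown with the 16 differing bases of 90 in capitals.
GOX1: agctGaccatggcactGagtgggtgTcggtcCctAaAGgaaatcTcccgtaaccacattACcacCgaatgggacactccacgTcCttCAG
GOX2: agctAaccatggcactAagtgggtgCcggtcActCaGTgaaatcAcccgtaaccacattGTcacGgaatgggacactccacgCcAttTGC
The P-protein genes GLDP1 (chr4:15926652-15931422, minus strand) and GLDP2 (chr2:11109003-11114291, minus strand) are further apart, at 85.6% identity and 447 differing bases. Their least alike coding stretch, from chr4:15930824-15930913 and chr2:11113445-11113534, has 27 differing bases, again in capitals.
GLDP1: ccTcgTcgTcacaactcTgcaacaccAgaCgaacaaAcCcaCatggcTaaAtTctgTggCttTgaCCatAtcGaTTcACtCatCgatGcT
GLDP2: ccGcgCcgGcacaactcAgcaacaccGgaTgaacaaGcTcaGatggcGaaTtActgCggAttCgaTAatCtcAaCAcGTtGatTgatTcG
PGLP1 (chr5:14421182-14424610, minus strand) is the other extreme. Its coding sequence and that of AT5G36790 (chr5:14480482-14483927, minus strand), annotated with phosphoglycolate phosphatase activity, are identical over all 1089 bases, and only 8.82% of the 50-base stretches of PGLP1 occur in no other gene. The opening 90 coding bases of both genes, at chr5:14424341-14424430 for PGLP1, show this.
PGLP1: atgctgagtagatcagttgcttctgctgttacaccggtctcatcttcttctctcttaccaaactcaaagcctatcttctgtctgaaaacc
Values of PGLP1 alone are uncertain for this reason, and the sum with AT5G36790 is given beside them. How reads shared between genes were assigned is not given in the sources used here.

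All 10 transcripts were abundant, at or above 100 TPM in every library, and 7 of them ranked within the 111 highest genes of each library. In TPM, 7 of the 10 were called higher in glk1 glk2 and 0 lower, against 63.0% of all tested genes called higher and 2.56% called lower. After TMM scaling 0 were called higher, against 3.20% of all genes, and 1 was called lower, PGLP1, against 4.96%. With both scalings 0 of 10 rose and 0 fell, against 3.20% and 2.53% of all genes. At an unadjusted p under 0.05 limma counted 7 of the 10 members in TPM and 4 after TMM scaling. Of all 19127 genes tested, 13388 passed in TPM and 4681 after TMM scaling. As a median, the 10 members stood at 0.30 (log2, TPM) and −0.06 (log2, TMM), where the medians of all genes were 0.33 and 0.01. Quantile normalization, which gives all libraries the same set of values in rank order, gave another count. It called 5 members higher, GOX1, GGT1, AGT1, GLDP2 and SHM1, against 3.98% of all genes, and 1 lower, PGLP1, against 4.82%. Among 21 Calvin cycle genes it called 7 higher and 2 lower, and among 27 further pathway genes 3 higher and 4 lower. The share among genes as abundant as the members was not counted, so 3.98% is not a matched background. The very abundant RCA of the Calvin cycle stood at 1.37 on that scale and 0.21 in TPM. The less abundant GAPA2 stood at −0.62 and −0.50. The member median on that scale was 0.38 and the median of all genes 0.02, so the direction of the group relative to other genes depends on the scaling chosen.

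**Figure D1:**
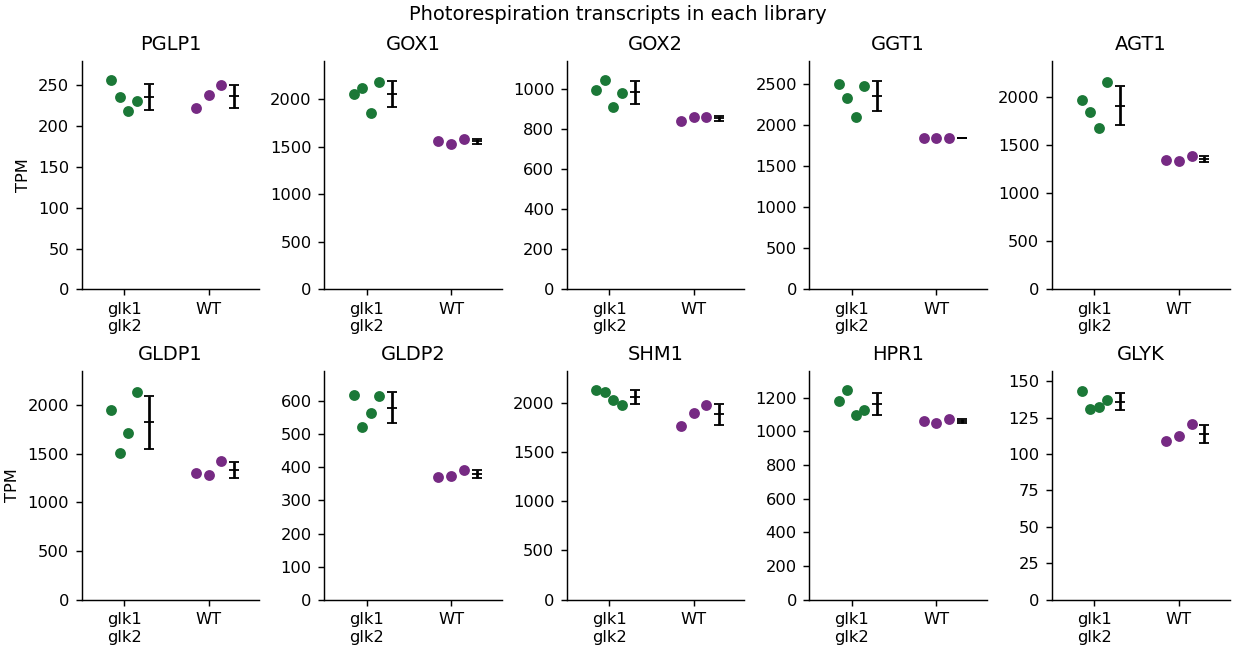
TPM of each of the 10 photorespiration transcripts (vertical axes, from 0) in every library, with 4 glk1 glk2 libraries in green on the left and 3 WT libraries in purple on the right of each panel. Bars are the mean and SD; in TPM the groups are apart for 8 genes and overlap for PGLP1 and SHM1.

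In the chloroplast, PGLP1 removes the phosphate from phosphoglycolate and so opens the pathway. PGLP1 stood at 257, 236, 219 and 231 TPM in glk1 glk2 and 222, 238 and 250.2 TPM in WT. The groups overlapped fully, and the log2 fold change in TPM was −0.01 (95% interval −0.17 to 0.16; limma adjusted p = 0.943). After TMM scaling the values were 232, 222, 189 and 206 in glk1 glk2 and 255, 272 and 293 in WT. On that scale WT replicate 1 was the lowest WT library and still lay above every mutant library, at a log2 fold change of −0.37 (−0.56 to −0.17; limma adjusted p = 0.0359). This call held in 12 of 18 fits, over which the adjusted p ran between 0.00909 and 0.166, and it was lost without WT replicate 1, 2 or 3 or mutant replicate 4. Together with AT5G36790, PGLP1 came to 339.6, 344, 306 and 324 TPM in glk1 glk2 and 320.5, 335 and 348 TPM in WT, which again overlapped.

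In peroxisomes, GOX1 and GOX2 oxidise glycolate to glyoxylate and release hydrogen peroxide. GOX1 had 2055, 2121, 1862 and 2179.9 TPM in glk1 glk2 and 1566, 1530.1 and 1585 TPM in WT. Every mutant library was above every WT library, 1.32-fold on the means, and the log2 fold change in TPM was 0.39 ± 0.08 (SE; limma adjusted p = 0.0027). After TMM scaling it was 0.03 (95% interval −0.20 to 0.26; limma adjusted p = 0.876), with mutant replicate 3 lowest of all 7 libraries, and after quantile normalization 0.60 (limma adjusted p = 0.00875). GOX1 overlaps AT3G14430 on the opposite strand at its end, and without a stated strand setting reads from the overlap cannot be assigned. GOX2 had 999, 1047, 911 and 984 TPM in glk1 glk2 and 843, 863 and 860.1 TPM in WT. These groups were also apart in TPM, by less: the log2 fold change was 0.20 in TPM (0.05 to 0.36; limma adjusted p = 0.0267) and −0.16 after TMM scaling (−0.37 to 0.05; limma adjusted p = 0.324). The TPM call of GOX2 was lost when WT replicate 1, 2 or 3 or mutant replicate 1 or 2 was left out, at limma adjusted p up to 0.0778. With WT replicate 1 in file order, the log2 fold changes in TPM would be 3.82 for GOX1 and 3.44 for GOX2, neither of them called (limma adjusted p = 0.234 and 0.255).

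GGT1 and AGT1 are the peroxisomal aminotransferases that make glycine from glyoxylate, GGT1 (chr1:8268385-8272021, minus strand) with glutamate and AGT1 (chr2:5538740-5541479, minus strand) with serine as the usual amino donor. GGT1 had 2509, 2337, 2107 and 2480.0 TPM in glk1 glk2 and 1845, 1849 and 1839.6 TPM in WT. The WT libraries had a coefficient of variation of 0.253% and lay below all mutant libraries, at a log2 fold change in TPM of 0.35 (0.16 to 0.54; limma adjusted p = 0.0059). After TMM scaling the difference was −0.01 (−0.25 to 0.23; limma adjusted p = 0.961) and after quantile normalization 0.76 (limma adjusted p = 0.00133). AGT1 had 1971, 1838, 1672 and 2152 TPM in glk1 glk2 and 1341, 1332 and 1388 TPM in WT. That is 1.41-fold on the means, with the groups apart; the log2 fold change was 0.49 in TPM (0.28 to 0.70; limma adjusted p = 0.00235) and 0.13 after TMM scaling (−0.12 to 0.38; limma adjusted p = 0.528). After quantile normalization it was 0.62 (limma adjusted p = 0.0452).

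GLDP1 and GLDP2 encode the P-protein of the mitochondrial glycine decarboxylase complex, the subunit that binds glycine and releases its carboxyl group as carbon dioxide. GLDP1 had 1947, 1503, 1709.8 and 2132 TPM in glk1 glk2 and 1299.6, 1278 and 1428 TPM in WT. Mutant replicate 2 was close to the WT libraries and replicate 4 was the highest, a spread of 15.1% (coefficient of variation) that was the widest of the 10 genes in the mutant. The log2 fold change was 0.44 in TPM (0.17 to 0.71; limma adjusted p = 0.0113) and 0.08 after TMM scaling (−0.20 to 0.36; limma adjusted p = 0.746). GLDP1 overlaps AT4G33000 on the opposite strand. GLDP2 had 621, 523, 566 and 616 TPM in glk1 glk2 and 371, 376 and 393 TPM in WT. It showed the highest ratio of the 10, 1.53-fold on the means, with a log2 fold change in TPM of 0.61 (0.44 to 0.78; limma adjusted p = 0.000473). After TMM scaling its values were 559, 493, 488 and 547 in glk1 glk2 and 427, 428 and 460.0 in WT. Those groups stayed apart, at a log2 fold change of 0.25 (0.07 to 0.42), but the limma adjusted p of 0.0884 missed the threshold; quantile normalization gave 0.37 (limma adjusted p = 0.0192). The TMM test passed in 2 of 18 fits, with array weights (limma adjusted p = 0.00295) and without mutant replicate 3.

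SHM1 (chr4:17831731-17835017, minus strand), the mitochondrial serine hydroxymethyltransferase that works beside the glycine decarboxylase complex, had 2130.1, 2114, 2030.3 and 1976 TPM in glk1 glk2 and 1769.6, 1904 and 1980.2 TPM in WT. The groups overlapped through mutant replicate 4 and WT replicate 3. The log2 fold change was 0.13 in TPM (−0.04 to 0.30; limma adjusted p = 0.146). After TMM scaling SHM1 stood at 1919, 1992, 1749 and 1757 in glk1 glk2 and 2035, 2172 and 2321 in WT. There the mutant was below WT in every library without passing the test, at −0.23 (−0.45 to −0.01; limma adjusted p = 0.185), whereas quantile normalization called SHM1 higher, at 0.40 (limma adjusted p = 0.0102). HPR1 (chr1:25493193-25496053, plus strand), the peroxisomal hydroxypyruvate reductase that makes glycerate, had 1179, 1247, 1094 and 1129 TPM in glk1 glk2 and 1061, 1048 and 1074 TPM in WT. Its groups were apart by a narrow gap between mutant replicate 3 and WT replicate 3, at 0.13 in TPM (−0.03 to 0.29; limma adjusted p = 0.121). After TMM scaling the order turned round, with all mutant libraries lower, at −0.23 (−0.44 to −0.02; limma adjusted p = 0.169); quantile normalization gave 0.13 (limma adjusted p = 0.267).

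GLYK (chr1:30217116-30220595, plus strand), annotated with glycerate kinase activity, phosphorylates glycerate in the chloroplast and closes the cycle. It was the least abundant member, with 144, 131, 132 and 137 TPM in glk1 glk2 and 109, 112 and 121 TPM in WT. The groups were apart in TPM, at a log2 fold change of 0.26 (0.12 to 0.39; limma adjusted p = 0.00609), and overlapped after TMM scaling, at −0.10 (−0.26 to 0.05; limma adjusted p = 0.397).

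**Figure D2:**
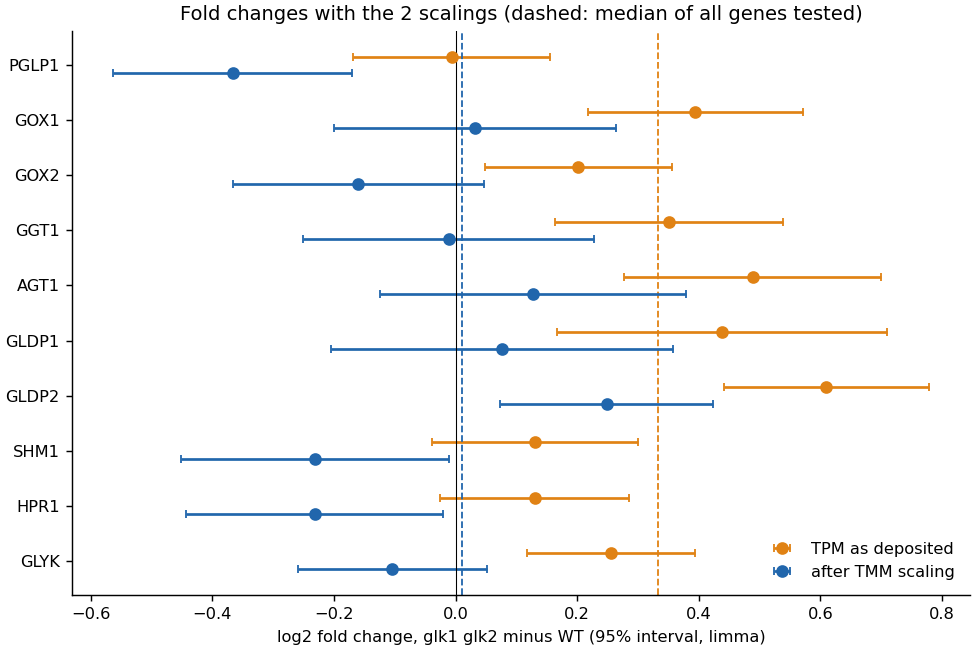
Log2 fold change of glk1 glk2 minus WT (horizontal axis) with its 95% interval from limma for each of the 10 genes, in TPM (orange) and after TMM scaling (blue); dashed lines are the medians of all genes tested, 0.33 and 0.01. In TPM 9 of the 10 points lie right of 0, and after TMM scaling 4 do, with GLDP2 highest and PGLP1 lowest on both scales.

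On the TMM scale the 10 genes spread to both sides of 0. Of the 10, 4 had groups that did not overlap, against 23.8% of all tested genes; in TPM 8 did, against 65.4%. GLDP2 was above WT in every mutant library, and SHM1, HPR1 and PGLP1 were below. The same order shows in the makeup of the summed member TPM, which does not depend on library scaling. GLDP2 took 4.49, 3.99, 4.60 and 4.39% of that sum in glk1 glk2 and 3.56, 3.57 and 3.60% in WT. SHM1 took 15.4, 16.1, 16.5 and 14.1% in glk1 glk2 and 17.0, 18.1 and 18.1% in WT. HPR1 took 8.54, 9.52, 8.89 and 8.05% in glk1 glk2 and 10.2, 9.95 and 9.84% in WT. GLDP2 was thus a larger, and SHM1 and HPR1 a smaller, part of the sum in each mutant library than in any WT library. AGT1 likewise held a larger share, between 13.6 and 15.4% in glk1 glk2 and between 12.6 and 12.9% in WT.

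Ratios of a member to a related gene within a library are also free of scaling. Of these, 6 were tested with an exact two-sided permutation test over the 35 divisions of the libraries, with p adjusted over the 6. The smallest p these divisions allow is 0.0286. The adjusted p of 0.0429 below passes only because several of the 6 ratios tie at this smallest p. How often other pairs of genes have ratios without overlap was not counted. GOX1 over GOX2 was 2.06, 2.03, 2.04 and 2.22 in glk1 glk2 and 1.86, 1.77 and 1.84 in WT. The tandem pair was thus tilted further towards GOX1 in every mutant library, by 0.19 ± 0.04 on the log2 scale (SE; exact p = 0.0286, adjusted p = 0.0429). GLDP1 over GLDP2 was 3.14, 2.88, 3.02 and 3.46 in glk1 glk2 and 3.50, 3.40 and 3.64 in WT. Mutant replicate 4 lay among the WT libraries, and the difference of −0.17 ± 0.06 did not pass (SE; exact p = 0.0857, adjusted p = 0.103).

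In 3 other pairs the member lost ground to its less abundant relative. SHM1 over SHM2, a second mitochondrial serine hydroxymethyltransferase, was 52.1, 56.2, 47.8 and 46.5 in glk1 glk2 and 66.0, 65.6 and 73.7 in WT, a log2 difference of −0.43 ± 0.08 (SE; exact p = 0.0286, adjusted p = 0.0429). HPR1 over AT1G79870, a relative from the same family of hydroxyacid dehydrogenases, was 10.1, 9.97, 9.24 and 10.1 in glk1 glk2 and 11.9, 11.9 and 12.7 in WT, a log2 difference of −0.30 ± 0.05 (SE; exact p = 0.0286, adjusted p = 0.0429). PGLP1 over PGLP2, the gene of a second phosphoglycolate phosphatase, was 18.2, 18.1, 15.9 and 16.5 in glk1 glk2 and 20.4, 23.1 and 25.4 in WT, a log2 difference of −0.42 ± 0.10 (SE; exact p = 0.0286, adjusted p = 0.0429). In each of these pairs all mutant libraries lay below all WT libraries. Adding AT5G36790 to PGLP1 left a log2 difference of −0.44 (exact p = 0.0286, adjusted p = 0.0429), so this ratio did not rest on how reads were split between the identical genes. PGLP2 overlaps AT5G47750 on the same strand and AT5G47770 on the opposite strand, and AT1G79870 overlaps AT1G79880 on the opposite strand, with which it shares 5.61% of its 50-base stretches. Reads in those overlaps cannot be assigned.

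The relatives themselves were low beside the members. SHM2 had 40.9, 37.6, 42.5 and 42.5 TPM in glk1 glk2 and 26.8, 29.0 and 26.9 TPM in WT, at a log2 fold change of 0.55 in TPM (limma adjusted p = 0.000459) and 0.20 after TMM scaling (limma adjusted p = 0.0628). AT1G79870 had 116, 125, 118 and 112 TPM in glk1 glk2 and 89.1, 88.4 and 84.2 TPM in WT, at 0.43 in TPM and 0.07 after TMM scaling (limma adjusted p = 0.000629 and 0.571). PGLP2 had 14.1, 13.0, 13.8 and 14.0 TPM in glk1 glk2 and 10.9, 10.3 and 9.86 TPM in WT, at 0.38 in TPM and 0.04 after TMM scaling (limma adjusted p = 0.002 and 0.711). All 3 were above WT in every mutant library in TPM, and none passed after TMM scaling. The last ratio, GGT1 over its relative GGT2, was 25.8, 27.5, 27.2 and 20.5 in glk1 glk2 and 31.6, 30.1 and 26.1 in WT. These overlapped, at −0.22 ± 0.13 on the log2 scale (SE; exact p = 0.229, adjusted p = 0.229) and −0.12 without mutant replicate 4, with GGT2 itself between 77.6 and 121 TPM in glk1 glk2 and between 58.4 and 70.4 TPM in WT.

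**Figure D3:**
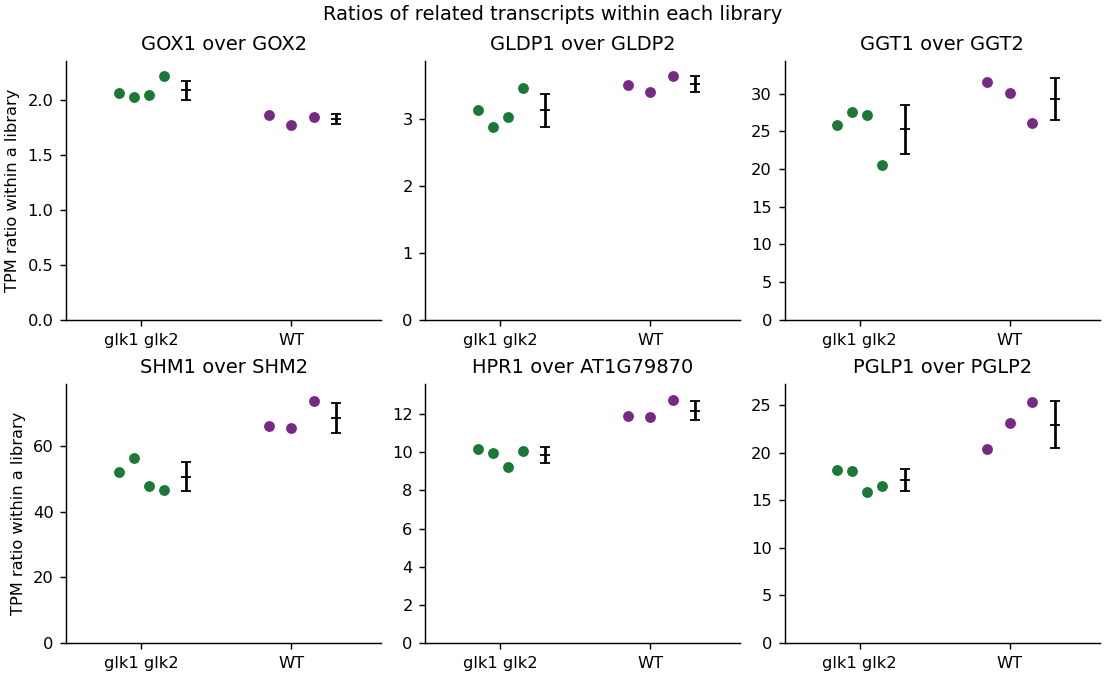
Ratio of the TPM of a member to that of its relative within each library (vertical axes, from 0) for the 6 pairs, with 4 glk1 glk2 libraries in green on the left and 3 WT libraries in purple on the right; bars are the mean and SD. GOX1 over GOX2 is higher in all mutant libraries, the SHM, HPR and PGLP ratios are lower in all of them, and the GLDP and GGT ratios overlap.

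The wider pathway was read from 27 further genes, among them catalases, the other glycine decarboxylase subunits, transporters and the enzymes of ammonia refixation. In TPM 16 of the 27 were called higher and 1 lower, against 63.0% and 2.56% of all tested genes. After TMM scaling 2 were called higher and 5 lower, against 3.20% and 4.96%. With both scalings 2 rose and 1 fell, against 3.20% and 2.53%. The median of the 27 stood at 0.31 (log2, TPM), −0.04 (log2, TMM) and 0.01 (log2, quantile), and the 3 genes that passed both scalings were also called in the same direction after quantile normalization. CAT2 (AT4G35090), the leaf peroxisomal catalase that removes the hydrogen peroxide made by glycolate oxidase, had 2439.8, 2363, 2240.1 and 2442 TPM in glk1 glk2 and 1410.0, 1427 and 1380.1 TPM in WT. CAT2 rose in all 4 mutant libraries, by 1.69-fold on the means, a log2 difference of 0.75 in TPM (limma adjusted p = 0.000188) and 0.39 after TMM scaling (limma adjusted p = 0.0323). The second call held in 11 of 18 fits, with adjusted p between 0.00111 and 0.208, and was lost when WT replicate 1, 2 or 3 or mutant replicate 1 or 4 was left out. CAT2 overlaps AT4G35080 on the opposite strand.

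The complex's L-protein, a dihydrolipoamide dehydrogenase that it shares with other mitochondrial complexes, has 2 genes, and they moved in opposite directions. mtLPD2 (AT3G17240) had 49.4, 49.5, 54.4 and 57.9 TPM in glk1 glk2 and 34.9, 35.7 and 32.6 TPM in WT. It rose, at a log2 fold change of 0.60 in TPM (limma adjusted p = 0.000473) and 0.25 after TMM scaling (limma adjusted p = 0.049). That second call held in 6 of 18 fits, with adjusted p between 0.0228 and 0.446, and was lost in each fit that left out a library. mtLPD1 (AT1G48030) had 157, 149, 149 and 156 TPM in glk1 glk2 and 161, 168 and 181 TPM in WT. It fell, at −0.15 in TPM (limma adjusted p = 0.0456) and −0.51 after TMM scaling (limma adjusted p = 0.00248). The TMM call held in 18 of 18 fits; the TPM call was lost when any library but WT replicate 1 was left out.

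After TMM scaling alone, 4 more genes were called lower, and their values are given without a verdict on direction. AT5G36790 stood at a log2 fold change of −0.44 (limma adjusted p = 0.0402); this call held in 8 of 18 fits and was lost without any one library other than mutant replicate 2. CAT3, another catalase, stood at −0.71 (limma adjusted p = 0.0471), a call that also held in 8 of 18 fits and was lost without any one library other than mutant replicate 3. HAOX2, a hydroxyacid oxidase related to the GOX enzymes, stood at −0.51 (limma adjusted p = 0.0192), called in 14 of 18 fits and lost without WT replicate 2 or 3 or mutant replicate 1. AT1G32080, annotated as a membrane protein of the LrgB type, stood at −0.46 (limma adjusted p = 0.00557), called in 17 of 18 fits.

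**Figure D4:**
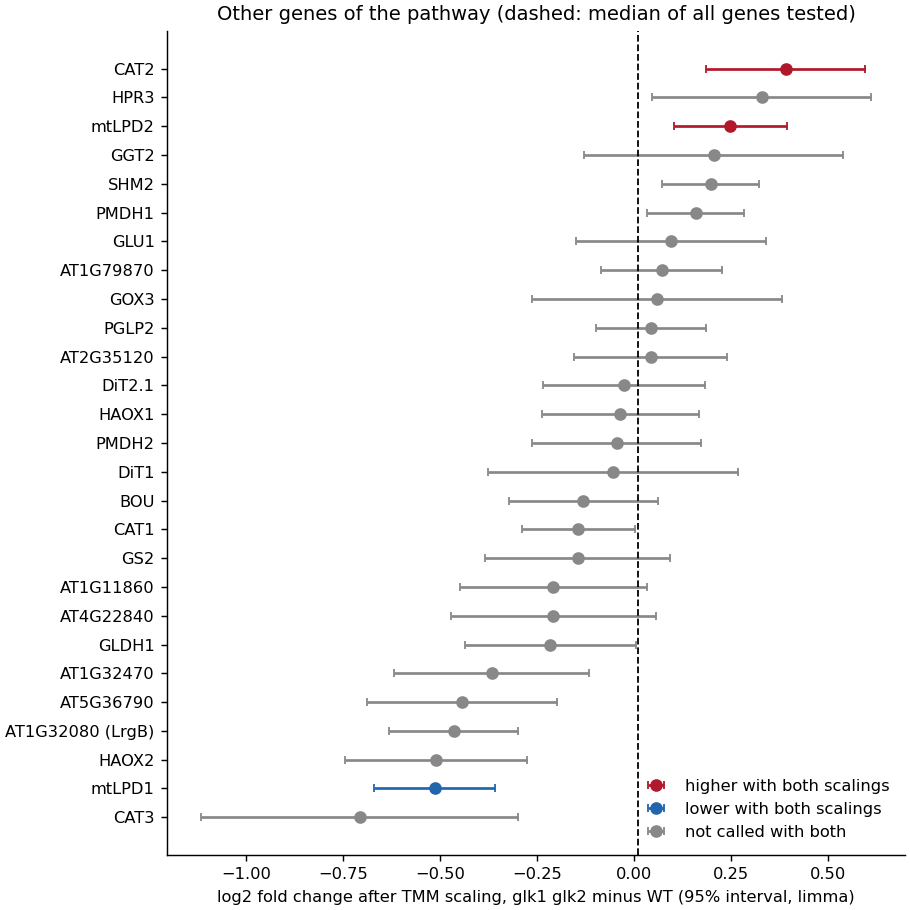
Log2 fold change after TMM scaling, glk1 glk2 minus WT (horizontal axis), with the 95% interval from limma for each of the 27 other pathway genes; the dashed line is the median of all genes tested. CAT2 and mtLPD2 were called higher and mtLPD1 lower with both scalings (coloured points), and the other 24 were not called with both.

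Other chloroplast-linked lists give the scale for these values. The 20 antenna genes stood at a median of −1.59 (log2, TPM), −1.95 (log2, TMM) and −0.87 (log2, quantile), and 18 of 20 fell, against 2.53% of all genes. Of 21 Calvin cycle genes 0 rose, against 3.20% of all genes, and 2 fell, GAPA2 and RBCS3B, of which RBCS3B stood at 0.24 after quantile normalization. The Calvin cycle median was 0.14 (log2, TPM), −0.22 (log2, TMM) and 0.22 (log2, quantile), so its sign also depends on the scaling. The summed TPM of the 10 members came to 13811, 13095, 12304 and 14017 in the libraries of glk1 glk2 and 10428, 10529.5 and 10917 in those of WT, or 1.33 ± 0.0777% (SD, n = 4) and 1.06 ± 0.0258% (SD, n = 3) of all TPM. Relative to the summed Calvin cycle transcripts it was 0.197, 0.188, 0.200 and 0.200 in glk1 glk2 and 0.167, 0.162 and 0.157 in WT. Relative to the summed antenna transcripts it was 0.301, 0.247, 0.253 and 0.325 in glk1 glk2 and 0.0629, 0.0655 and 0.0672 in WT. Every mutant library was above every WT library in all 3 measures. The first depends on library scaling and the other 2 do not, but those 2 depend on their denominators. The antenna sum averaged 47646 TPM in glk1 glk2 and 163023 TPM in WT, so the ratio to it says little about the members. The Calvin cycle sum averaged 67748 TPM in glk1 glk2 and 65699 TPM in WT, and it includes RBCS3B and GAPA2, which fell. Most of it came from Rubisco small subunit and Rubisco activase transcripts, so the ratio is largely to those. RBCS1A, RCA and RBCS3B averaged 22174, 9544 and 9332 TPM in glk1 glk2 and 20460, 8243 and 11947 TPM in WT.

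**Figure D5:**
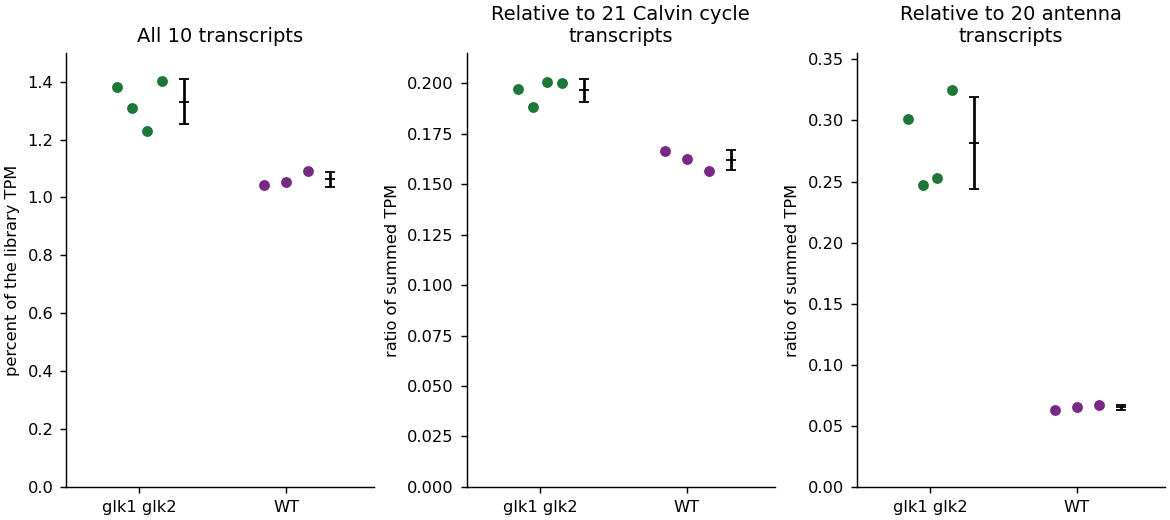
Summed TPM of the 10 photorespiration transcripts as a percentage of the library (left) and as a ratio to the summed TPM of 21 Calvin cycle genes (middle) and 20 antenna genes (right), with 4 glk1 glk2 libraries in green, 3 WT libraries in purple and bars for the mean and SD. In each panel all mutant libraries lie above all WT libraries. The right panel also carries the fall of the antenna transcripts.

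Most members varied more across the mutant libraries than across the WT libraries. The coefficient of variation in TPM ran between 3.51 and 15.1% over the 10 genes in glk1 glk2 and between 0.253 and 6.07% in WT. It was larger in the mutant for 8 of them, all but SHM1 and GLYK. The share of all genes with a larger spread in the mutant was not counted. Replicate 3 was the lowest mutant library for 6 members and replicate 1 the highest for 5. The 12 root markers summed to 2709.7, 1975, 1956 and 3294 TPM in glk1 glk2 and 2133, 2258 and 1781 TPM in WT. PYK10 was most of each sum, at 2419, 1738, 1713 and 2887 TPM in glk1 glk2 and 1894, 2044 and 1631 TPM in WT. COBL9, RHD6, SCR, SHR and PIN2 ranked mutant replicate 3 among their 2 highest mutant libraries. The other markers had replicates 1 and 4 there. Mutant replicates 1 and 4, the highest in the root marker sum, were also the highest for 5 of the 10 members, GLDP1, GLDP2, GGT1, AGT1 and GLYK. They were not for the other 5: GOX2 and HPR1 were highest in replicate 2, and SHM1 was lowest in replicate 4. All 12 root markers had a higher mean TPM in glk1 glk2 and were above 0 in every library. Of the 11 tested, 4 were called higher in TPM, against 63.0% of all genes, and 0 after TMM scaling, against 3.20%. Their median log2 fold change was 0.47 in TPM, 0.17 after TMM scaling and 0.22 after quantile normalization. The medians of all genes were 0.33, 0.01 and 0.02. After TMM scaling 9 of the 11 were above 0, as were 10013 of all 19127 genes. The 4 shoot markers summed to 2.72 ± 0.103% of TPM in glk1 glk2 (SD, n = 4) and 2.50 ± 0.133% in WT (SD, n = 3). RBCS1A, also in the Calvin cycle list, was most of that sum. It averaged 22174 of 27178 TPM in glk1 glk2 and 20460 of 24959 TPM in WT. Its log2 fold change was 0.12 in TPM and −0.25 after TMM scaling (limma adjusted p = 0.408 and 0.442). The part of organ makeup in the member values was not tested, and in whole seedlings fewer cells of a type and less RNA per cell cannot be told apart.

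Promoters of the members were read beside those of the antenna genes, most of which fell. The 250 bases before the annotated start were searched on both strands for 4 motifs. CCAATC is a run of letters described for GLK binding in Arabidopsis. AGATTC is another one described for these factors. The remaining motifs were the G-box, spelled CACGTG, and the I-box core that GATA-family factors bind, spelled GATAAG in its forward reading. Of the 10 member promoters, CCAATC occurred in 2, those of GOX1 and GLDP2, against 10.2% of 27443 promoters and 10 of the 20 antenna promoters. AGATTC occurred in 2, GLDP1 and GLYK, against 16.4% of all promoters and 5 of the 20 antenna promoters. CACGTG occurred in 2, GGT1 and GLDP1, against 6.49% of all promoters and 4 antenna promoters, and GATAAG in 1, GLDP2, against 12.3% and 4. No match in a member promoter shares bases with another. The tandem GOX promoters and that of GLDP2 are shown, with matches in capitals, from chr3:4821141-4821390 (plus strand), chr3:4818001-4818250 (plus strand) and chr2:11114292-11114541 (minus strand).
GOX1 promoter: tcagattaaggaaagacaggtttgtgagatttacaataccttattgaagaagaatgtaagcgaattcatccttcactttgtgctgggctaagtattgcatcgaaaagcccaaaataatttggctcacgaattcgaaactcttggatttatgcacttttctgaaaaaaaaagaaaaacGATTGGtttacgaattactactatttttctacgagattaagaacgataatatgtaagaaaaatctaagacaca
GOX2 promoter: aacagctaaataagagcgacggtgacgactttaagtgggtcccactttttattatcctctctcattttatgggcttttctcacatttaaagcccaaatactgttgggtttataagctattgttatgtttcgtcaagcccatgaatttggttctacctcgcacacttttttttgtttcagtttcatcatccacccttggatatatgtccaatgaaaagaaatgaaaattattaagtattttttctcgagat
GLDP2 promoter: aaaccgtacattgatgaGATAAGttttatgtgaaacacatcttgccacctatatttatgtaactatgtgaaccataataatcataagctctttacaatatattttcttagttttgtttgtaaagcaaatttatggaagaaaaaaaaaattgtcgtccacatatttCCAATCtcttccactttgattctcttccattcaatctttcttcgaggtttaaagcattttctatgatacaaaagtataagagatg
The CCAATC match of GOX1 lies on the minus strand, as GATTGG, 73 bases before the start, and that of GLDP2 on the plus strand, 85 bases before it. GOX2 holds none of the 4 motifs in this window. A match is a description of letters and shows neither a binding site nor a cause.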

How the data were processed

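The authors deposited 1 table of TPM values, with a column for each of 7 libraries and 0 columns that match no sample; each deposited TPM column sums to 1000000 within rounding. Per the labels' protocols, total RNA was sequenced as DNA nanoballs. TopHat2, Cufflinks and the TAIR10 build are named without versions, per the submitters' processing notes; the sources used here give no annotation, strand setting or rule for shared reads. Genes at 1 TPM or more in at least 3 libraries (19127) were fitted as log2(TPM + 1) with limma 3.58.1 in R 4.3.3 (trended eBayes, two-sided, Benjamini-Hochberg adjustment over all tested genes, all 7 libraries, genotype only). Fold changes on this scale understate the change of low genes. TMM factors were computed on the TPM table, trimming 30% of log ratios and 5% of mean levels; they were 1.11, 1.06, 1.16 and 1.12 in glk1 glk2 and 0.869, 0.877 and 0.853 in WT. Within-library ratios were tested by enumerating all divisions (numpy 2.4.6). Sequences and coordinates are from the RefSeq annotation of TAIR10.1, which matched 27445 of the Gene IDs. Planned for naming were all 10 members, their relatives in the 6 ratios, other pathway genes called with both scalings, and GLK1 and GLK2. The 4 genes called lower after TMM scaling alone, the promoters and the sequence stretches were chosen after their values were seen. So were GLDH1 and each Calvin cycle gene and root or shoot marker that is named. The rule for the members uses no measured value, but the members and lists were chosen with earlier results of these data known. Alternatives covered scaling, pseudocount, filter, trend, weights, threshold, replicate block, the reading of WT replicate 1 and each library left out.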

Additional observations from a re-analysis of the deposited data

Results flagged for a closer look

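GLDH1 (AT2G35370), an H-protein gene of the glycine decarboxylase complex, had 633 TPM in mutant replicate 2, which stood apart from the other 3 glk1 glk2 libraries by 0.834 of the range of that group, above Dixon's 95% critical value for 4 samples. Of 37 pathway genes it was the only 1 with such a library among the glk1 glk2 libraries, and chance gives about 1 in 20 groups; 0 of the 10 members had one. The 3 WT libraries are too few for this check and were not included.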

How the results depend on the processing

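Of the 10 members, 7 were called higher in TPM, against 0 with TMM scaling, 5 with quantile normalization and 2 with the antenna genes removed and TPM rescaled, an alternative chosen after seeing the data. The 1 member lower after TMM scaling became 3 with array weights and 0 at an adjusted p under 0.01, with the replicate block or with WT replicate 1 as deposited, and 0 to 1 with a library left out. The count of members higher with both scalings, 0, became 1 with array weights, and 0 to 1 with a library left out. Of the wider pathway, 2 genes higher with both scalings became 0 with no filter, at 0.01 or with the block, 1 without trend or with WT replicate 1 as deposited or missing in the affected rows, 6 with array weights, and 0 to 1 with a library left out. The 1 lower gene became 0 without trend, at 0.01, with the block or with WT replicate 1 as deposited, 4 with array weights, 3 with antenna genes removed, and 0 to 1 with a library left out. Log2 fold changes turned sign with TMM scaling for GOX2 (−0.16), GGT1 (−0.011), SHM1 (−0.23), HPR1 (−0.23) and GLYK (−0.10), with quantile normalization for GLYK (−0.058), and with antenna genes removed for SHM1 (−0.055) and HPR1 (−0.056). PGLP1 in TPM became 0.070 with array weights and 0.0025 with the block, and ran between −0.052 and 0.034 with a library left out. After TMM scaling, GOX1 ran between −0.0091 (without mutant replicate 2) and 0.099 and GGT1 between −0.043 and 0.062 (without mutant replicate 3) with a library left out; GGT1 became 0.057 with array weights and GOX2 3.15 with WT replicate 1 as deposited. Causes were not tested, beyond fewer libraries where one was left out. The 6 ratios kept their direction in every fit, GOX1 over GOX2 at 0.16 to 0.21 and GGT1 over GGT2 at −0.30 to −0.12 with a library left out; fits with a library left out or with the block, 0.16 for GOX1 over GOX2, are too small for an exact test to pass, and GOX1 over GOX2 has no value with WT replicate 1 as deposited, where GOX2 is listed at 0. Same-numbered libraries correlated at −0.0962, 0.171 and 0.155 in their deviations from the group means. WT replicates 2 and 3 each correlated best with the mutant library of the same number, though WT replicate 3 reached 0.144 with mutant replicate 1. WT replicate 1 correlated best with mutant replicate 4 (0.275). Whether same-numbered libraries share more than a number was not tested. TPM keep no depth, which limits every value alike.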
